A study of Drosophila melanogaster with 6 samples.

Results

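RNA counted on annotated insertions of non-LTR retrotransposons and DNA transposons was followed in larval intestines, insertion by insertion and family by family. The insertions were chosen by name: a row of the deposited count table was taken when it carried a FlyBase insertion identifier and when the Ensembl annotation of the BDGP6 genome placed it in one of a fixed list of families. This gave 4101 insertions, out of 5736 rows for insertions and 24278 rows in all. Non-LTR retrotransposons made up 949 of them in 30 families, DNA transposons 918, and INE-1, a short and very numerous element that was counted on its own, 2234. DNA transposons and INE-1 together made up 18 families, so that 48 families were followed. The annotation writes the F, G, I, X, H and S elements with the plain letter, and 306 insertions were matched in that way. No insertion was named P-element or hobo, and H is the name under which hobo copies appear.

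EcRi larvae carried the enterocyte driver Myo1A-GAL4 together with a UAS hairpin against EcR, the ecdysone receptor gene, and Tub-GAL80ts, which holds GAL4 inactive in the cold. Both genotypes also carried Tub-LexA driving a LexO hairpin against spok, a gene of ecdysone synthesis, which was used to remove the larva's own hormone. The paper states that GAL80ts holds this LexA driver back as well, so that the spok hairpin too came on with the shift to 29 °C. By the crosses in the methods, control larvae had mothers of the same stock and fathers without Myo1A-GAL4, and so held the EcR hairpin and GAL80ts without a driver. The control titles read myo1a-con, and it remains unsettled which description holds. After an egg collection of 8 h, larvae were kept for 6 days at 18 °C and then for 4 days at 29 °C. RNA came from whole intestines, with 3 libraries of EcRi and 3 of control, which the labels number as biological replicates. Because the fathers came from different stocks, insertions that only 1 stock carried and the knockdown of EcR cannot be told apart as sources of a difference. Fewer cells of a type and less RNA per cell cannot be told apart either.

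The libraries held between 200890663 and 246255664 counts in EcRi and between 207243581 and 236532831 in control. Levels are given as CPM, counts scaled by library size with the TMM method, with factors from 1.21 to 1.30 in EcRi and from 0.713 to 0.845 in control. Without that scaling, the median over all tested rows would be 0.68 on the log2 scale in place of 0.03. EcR itself averaged 29.9 ± 1.87 CPM in EcRi and 33.5 ± 10.5 CPM in control (SD, n = 3 each). In the whole intestine its log2 fold change was −0.17 and the edgeR adjusted p 0.517. The summed level of 7 enterocyte markers ran from 6458 to 12432 CPM in EcRi and from 51936 to 95966 CPM in control, most of it from the protease gene Jon65Aiv at 6385 ± 2392 CPM in EcRi and 59904 ± 19924 CPM in control. Of these 7, Jon65Aiv, alphaTry, betaTry, lambdaTry and mex1 fell, nub rose by 0.80 on the log2 scale, and Myo31DF, the gene of the driver, was at −0.06 and not called. The summed level of 7 tracheal markers ran from 819 to 952 CPM in EcRi and from 129.9 to 186 CPM in control. Most of it came from serp, verm and dpy, and btl was at 0.18 and not called, while the other 6 rose. That of 5 visceral muscle markers ran from 559 to 697 CPM in EcRi and from 1977 to 2383 CPM in control. Of these 5, Mhc, Act57B, Mlc2 and Tm2 fell, and how rose by 0.41 on the log2 scale. EcRi replicate 3 stood apart in gonad markers: it alone had counts of zpg (32) and tj (76), and it had 43 counts of vas where the other EcRi libraries had 16 and 5 and the control libraries 12, 6 and 7. Without it, 59 insertions were higher and 55 lower, and 6 families were higher and 5 lower. The summed level of 7 fat body markers ran from 203 to 962 CPM in EcRi and from 58.6 to 803 CPM in control. Lsp1alpha had 9.70, 7.30 and 12.4 CPM in EcRi, against 292, 11.6 and 2.07 CPM in control. Fbp2 had 2.15, 1.32 and 48.2 CPM in EcRi, against 39.5, 1.27 and 0.773 CPM in control. Of these 7, Fbp1 rose by 6.27 on the log2 scale, ppl fell by 0.97 and 5 were not called. These markers moved with the genotype or with single libraries, and their part in the values of the insertions was not tested.

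Non-LTR retrotransposons are copied through an RNA, which is reverse transcribed at the new site. In Drosophila, HeT-A and TART elements insert at chromosome ends and maintain the telomeres in place of telomerase. DNA transposons such as Bari1, pogo, Tc1 and H instead encode a transposase that cuts the element out and moves it, and many of their copies are short remnants. Copies of INE-1, counted apart here, are mostly short and have no protein of their own. In the gonads these families are silenced mainly by Piwi-bound small RNAs, and in other tissues by short interfering RNAs bound by AGO2. A read counted on an insertion may come from the element's own promoter or from a gene transcript that runs through it, and these tables do not separate the sources.

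Most insertions had little or no signal. In all libraries 1764 of the 4101 were at 0, 1861 had counts but too few for the test, and 476 were tested. A count of 3, taken here as the limit of detection, corresponds to between 0.0122 and 0.0149 CPM. Only 22 insertions averaged at least 1 CPM, and these held 47.5% of all counts on the insertions. A single copy, Doc{}CHKov1[Doc1420], took 21.1% of the counts. It lies on chromosome 3R from 25324412 to 25328927 over coding sequence of CHKov1, on the same strand. It had 39.1, 36.2 and 37.6 CPM in EcRi, against 45.7, 44.1 and 36.0 CPM in control. The ranges overlapped, the log2 fold change was −0.16 ± 0.10 (SE) and the edgeR adjusted p was 0.231. CHKov1 gave 0.06, and neither passed the test.

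Of the 476 tested insertions, 70 were higher in EcRi, 57 were lower and 349 did not pass an adjusted p of 0.05 in edgeR's quasi-likelihood test. That is fewer calls than in the table as a whole, where 59.5% of 12193 tested rows were called, 30.1% as higher and 29.3% as lower. Low counts were part of this comparison: among all rows with a mean below 1 CPM, 40.7% were called, 26.5% as higher and 14.1% as lower. Among the other annotated insertions of the table, 33.7% of 332 were called. The tested non-LTR insertions gave 28 higher and 15 lower of 171, the DNA transposons 24 and 16 of 116, and INE-1 18 and 26 of 189. The median log2 fold change was −0.01 over the 476 insertions and 0.03 over all tested rows. Scaling by total counts moved the calls to 156 higher and 25 lower, since it raised every value by about the shift given above.

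The summed level of all 4101 insertions was 191, 199 and 193 CPM in EcRi, against 185, 180 and 153 CPM in control. The libraries did not overlap, with a log2 difference of 0.17 and a two-sided exact permutation p of 0.1, the smallest that 3 against 3 allows. One insertion, G2{}340, decided this difference. Without it the sums averaged 168.7 ± 4.56 CPM in EcRi and 172.8 ± 17.0 CPM in control, a log2 difference of −0.03 (exact permutation p = 0.9). The sum over insertions outside genes averaged 71.2 ± 9.32 CPM in EcRi and 36.7 ± 4.74 CPM in control. Without G2{}340 it was 45.8 ± 2.07 CPM in EcRi and 36.7 ± 4.74 CPM in control, a log2 difference of 0.33 (exact permutation p = 0.1). Insertions in introns summed to 79.9 ± 6.42 CPM in EcRi and 88.2 ± 6.61 CPM in control, and those over exons to 43.0 ± 1.22 CPM in EcRi and 47.9 ± 5.74 CPM in control. For both the libraries overlapped.

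Counts were then summed by family, which also uses insertions too low to test singly. Of 42 tested families, 9 were higher in EcRi, 8 were lower and 25 were not called, beside 61.5% of all 11491 tested rows of that table, 31.1% higher and 30.4% lower. The higher families were G2, Bari1, Juan, transib1, HeT-A, G5, the I-element, Doc2 and the F-element. The lower ones were Ivk, hopper2, Tc1-2, G3, jockey2, Doc3, Tc1 and Cr1a. Non-LTR elements made up 7 of the 9 and 5 of the 8, beside 26 of the 42 tested families. The median log2 fold change over the 42 families was 0.05. BS4, Bari2, G7, NOF, TART-B and TART-C had too few counts to be tested, and none of them exceeded 15 counts in a library.

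**Figure D1:**
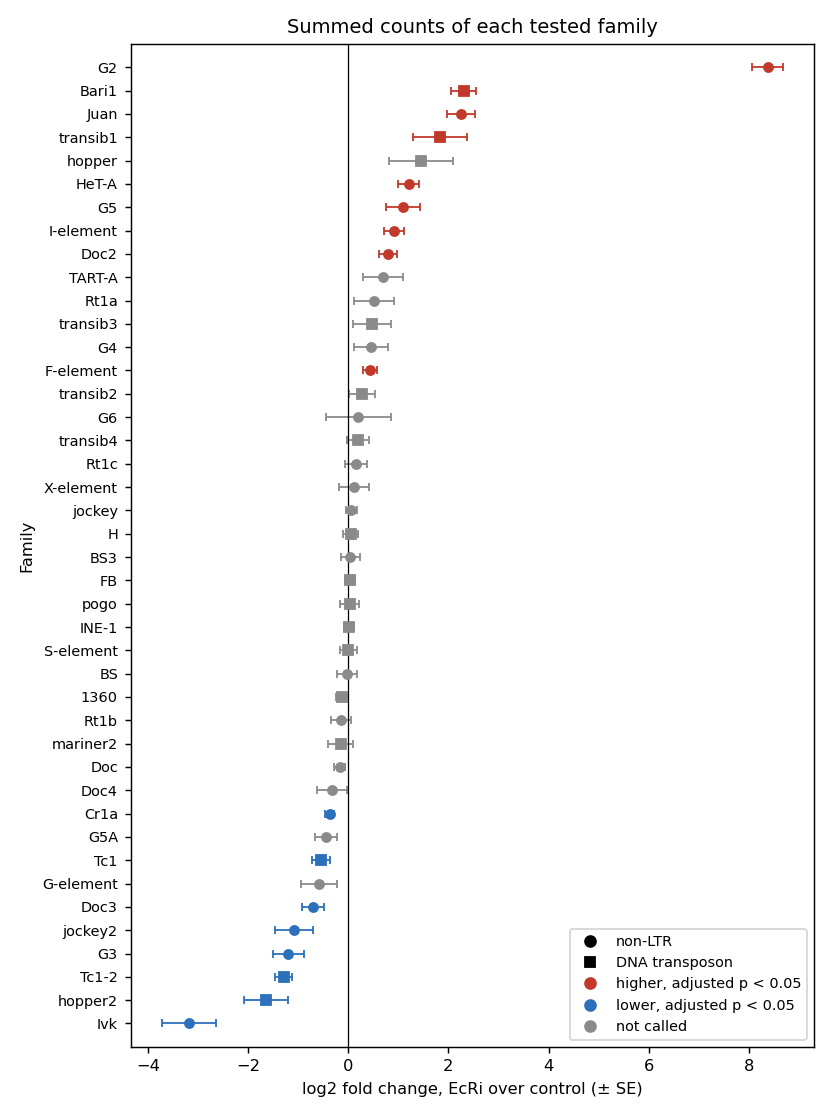
The log2 fold change of the summed counts of each of the 42 tested families, EcRi over control, is plotted with its SE, with circles for non-LTR elements and squares for DNA transposons and INE-1. Red marks the 9 families that were higher and blue the 8 that were lower at an edgeR adjusted p of 0.05, and G2 stands alone at 8.38 while most of the 25 uncalled families lie close to 0.

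G2, a non-LTR element of the jockey group, had by far the largest difference. Its 21 insertions together had 24.2, 34.3 and 19.1 CPM in EcRi, against 0.0655, 0.0914 and 0.0760 CPM in control. Every EcRi library stood far above every control library, and the log2 fold change was 8.38 ± 0.31 (SE, edgeR adjusted p = 2.9e-06). The copy G2{}340, with 98.4% of the family's counts in EcRi and 48.8% in control, lies outside genes on the plus strand of chromosome 2L from 11315294 to 11317659. It had 5798, 10446 and 5393 counts in EcRi, against 7, 8 and 5 counts in control. It alone gave 13.2% of the counts on all insertions in EcRi and 0.0216% in control (log2 fold change 9.38 ± 0.33, edgeR adjusted p = 2.4e-06). Within 10000 bp the table lists only 2 long noncoding RNAs and a transib2 fragment, and all of these were at 0 in all 6 libraries.

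With G2{}340 left out, the family's log2 fold change was 3.36 ± 0.37 (edgeR adjusted p = 0.00016). Besides G2{}340, only G2{}CG3894[iso-1] had enough counts to be tested singly, so that 2 of the 21 insertions were tested. It is a copy named after the reference strain iso-1 that lies in an intron of CG3894 on the same strand (2R, 24763666 to 24765583), and it had 71, 118 and 58 counts in EcRi and 0 in every control library. This copy was chosen after its values were seen. Its host CG3894 averaged 14.1 CPM in both genotypes, with a log2 fold change of 0.00.

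Bari1, a Tc1-like DNA transposon, and Juan, a jockey-like non-LTR element, were the next highest families. The 7 Bari1 insertions summed to 0.941, 1.32 and 1.25 CPM in EcRi, against 0.282, 0.228 and 0.196 CPM in control (log2 fold change 2.31 ± 0.25, edgeR adjusted p = 0.00015). The 11 Juan insertions summed to 0.386, 0.362 and 0.474 CPM in EcRi, against 0.0756, 0.0971 and 0.0824 CPM in control (log2 fold change 2.26 ± 0.28, edgeR adjusted p = 0.00032). In both families each EcRi library stood above all control libraries. The most abundant Bari1 copy, Bari1{}282 (2L, 770516 to 772243), had 127, 246 and 200 counts in EcRi and 6, 6 and 7 in control. Bari1{}1409, in an intron of beat-IV on 3R, had 60, 88 and 86 counts in EcRi and 0, 1 and 0 in control. Both have the same length of 1728 bp.

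Long copies are common in Juan, whose 11 insertions have a median length of 4230 bp. Juan{}266, 4230 bp long and in an intron of lncRNA:CR44997 on X, had 37, 51 and 40 counts in EcRi and 5, 2 and 4 in control. Juan{}768, 4236 bp long and 76 bp from so on 2R, had 9, 23 and 18 counts in EcRi and 0 in every control library, and was too low for the test. Juan{}1366, 2995 bp long and 32 bp from CG6912, had 40, 32 and 63 counts in EcRi and 7, 15 and 7 in control. Its call did not hold in 4 of the 6 fits that left out a library. Bari1{}1409, Juan{}266 and Juan{}768 were chosen after their values were seen. Without their most abundant copies both families were still called, at 1.32 for Bari1 and 3.01 for Juan.

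The telomeric elements rose as far as they were called. The 27 HeT-A insertions summed to 6.71, 5.84 and 4.60 CPM in EcRi, against 2.85, 2.74 and 1.86 CPM in control (log2 fold change 1.21 ± 0.21, edgeR adjusted p = 0.0017). The lowest EcRi library was above the highest control library. Of 15 HeT-A insertions tested, 6 were higher and none lower, beside 30.1% higher and 29.3% lower over all tested rows. The 2 above 1 CPM in EcRi were HeT-A{}6262 and HeT-A{}6278. Both lie in the array that ends the assembled chromosome 4, as do HeT-A{}6268, TART-A{}4601, TART-A{}6259 and TART-A{}6261. HeT-A{}6262, from 1314342 to 1320140, had 1.86, 2.02 and 1.01 CPM in EcRi, against 0.630, 0.371 and 0.285 CPM in control (log2 fold change 1.92 ± 0.38). HeT-A{}6278, from 1278430 to 1281474, had 1.45, 1.17 and 1.23 CPM in EcRi, against 0.559, 0.428 and 0.437 CPM in control (log2 fold change 1.43 ± 0.21). Another chromosome end gave a like value: HeT-A{}4795, on X from 109756 to 114008, averaged 0.453 ± 0.0459 CPM in EcRi and 0.162 ± 0.0269 CPM in control (log2 fold change 1.48 ± 0.25). It was chosen after its values were seen, as were HeT-A{}6268 and the single TART-A copies below except TART-A{}4601.

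TART-A as a family was not called, at 2.32, 1.48 and 0.906 CPM in EcRi against 1.10, 1.22 and 0.589 CPM in control (log2 fold change 0.69 ± 0.40, edgeR adjusted p = 0.175). The libraries overlapped. A short fragment, TART-A{}4601, which lies 429 bp from the gene Cadps, held 72.4% of the family's counts in EcRi and 92.0% in control, and its own log2 fold change was 0.33 ± 0.40. The longer copies farther out were different. TART-A{}6259 had 39, 23 and 45 counts in EcRi and 2, 0 and 0 in control. TART-A{}6261 had 150, 33 and 29 counts in EcRi and 1, 7 and 0 in control, and its call was lost without control replicate 1 and without control replicate 3, at log2 fold changes of 3.67 and 3.62. Without the fragment the family's log2 fold change was 2.46 ± 0.78 (edgeR adjusted p = 0.028). Cadps, the last gene before the array, fell by 0.54 on the log2 scale.

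The other 5 higher families rested on single copies or on small differences. The transib1 counts all came from transib1{}1717, with 23, 24 and 34 counts in EcRi and 2, 8 and 4 in control (family log2 fold change 1.84 ± 0.54, edgeR adjusted p = 0.019). The I-element summed to 0.966, 1.01 and 0.787 CPM in EcRi, against 0.484, 0.468 and 0.513 CPM in control (log2 fold change 0.92 ± 0.20, edgeR adjusted p = 0.0051). Its leading copy, I{}Sirt6-iso-1b in an intron of Sirt6, had 101, 165 and 107 counts in EcRi and 24, 8 and 13 in control, and without it the family was at 0.24 and not called. Doc2 summed to 1.34, 1.26 and 1.58 CPM in EcRi, against 0.816, 0.759 and 0.843 CPM in control (log2 fold change 0.79 ± 0.18). Doc2{}4272, in an intron of the kinase gene Stlk on the same strand, held 87.5% of its counts in EcRi and 83.2% in control, while Stlk itself was at −0.17. The F-element had 2.44 ± 0.159 CPM in EcRi and 1.81 ± 0.163 CPM in control (log2 fold change 0.43 ± 0.15, edgeR adjusted p = 0.033), the smallest family difference among the 9. Its copies outside genes were at 1.28 ± 0.26 (edgeR adjusted p = 0.0037). In all 4 families no EcRi library was as low as any control library.

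G5 was high in 1 library above all. Its counts were 137, 184 and 330 in EcRi, against 72, 76 and 45 in control (log2 fold change 1.09 ± 0.35, edgeR adjusted p = 0.026). Without EcRi replicate 3 the value was 0.69, and it was not called, nor was it without control replicate 1 (1.09) or control replicate 3 (0.96). G5{}492 on 2L had 82, 109 and 244 counts in EcRi and 4, 4 and 8 in control, and without this copy the family stood at −0.36 and was not called. The F-element call was lost without EcRi replicate 1 (0.40), EcRi replicate 3 (0.44), control replicate 1 (0.43) or control replicate 3 (0.37). The transib1 call was lost without EcRi replicate 3 (1.68), control replicate 1 (1.41) or control replicate 3 (1.82).

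**Figure D2:**
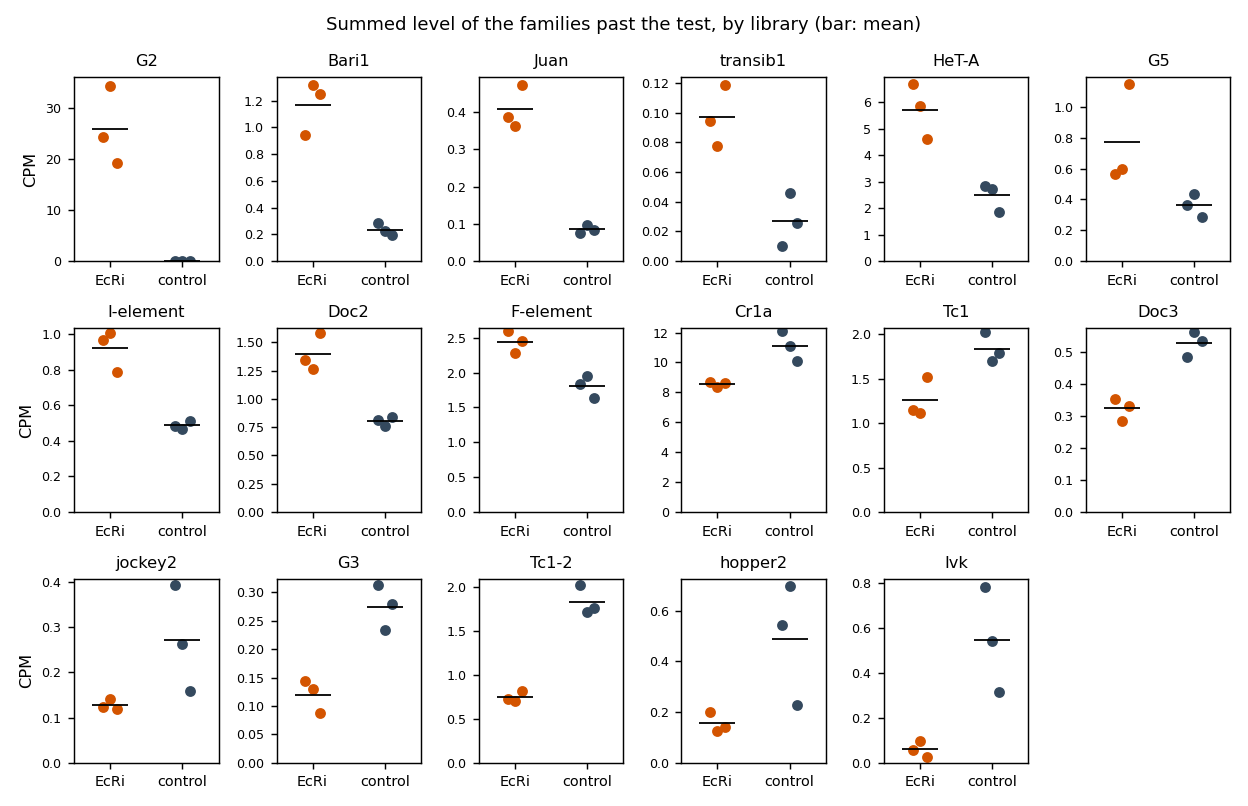
Summed level in CPM of each of the 17 called families in the 3 EcRi libraries (left, orange) and the 3 control libraries (right, dark), with a bar at the mean and a scale of its own from 0 for each family. The libraries of the genotypes do not overlap in any of the 17 families, and the spread is wide in G5 among EcRi libraries and in Ivk, hopper2 and jockey2 among control libraries.

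Ivk, a non-LTR element related to the I-element, fell the most. Its 11 insertions summed to 0.0575, 0.0968 and 0.0244 CPM in EcRi, against 0.781, 0.542 and 0.317 CPM in control (log2 fold change −3.18 ± 0.55, edgeR adjusted p = 0.0017). The highest EcRi library was below the lowest control library, and the family was called in each fit that left out a library. All 3 copies with enough counts were lower. Ivk{}1704, on X and 234 bp from png, had 2, 1 and 2 counts in EcRi and 61, 31 and 18 in control. Ivk{}1098, in an intron of SPoCk on 3L, had 2, 3 and 0 counts in EcRi and 13, 18 and 14 in control. Both were chosen after their values were seen, and neither png (−0.38) nor SPoCk (0.21) passed the test. Ivk{}509 on 2L had 8, 19 and 2 counts in EcRi and 80, 44 and 12 in control, and its call was lost without EcRi replicate 1 (−2.81) and without control replicate 1 (−2.27).

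The Tc1-like DNA transposons Tc1-2 and Tc1 were lower as well. Tc1-2 summed to 0.723, 0.701 and 0.822 CPM in EcRi, against 2.03, 1.72 and 1.76 CPM in control, with no overlap (log2 fold change −1.29 ± 0.17, edgeR adjusted p = 0.00043). Of 7 copies tested singly, 3 were lower and 1 was higher, beside 29.3% lower and 30.1% higher over all tested rows. Tc1-2{}5456, in an intron of the calcium pump gene PMCA on chromosome 4, had 35, 108 and 75 counts in EcRi and 208, 134 and 145 in control. Tc1-2{}2836, over 5′ UTR sequence of Sox102F on the same chromosome and chosen after its values were seen, had 4, 7 and 12 counts in EcRi and 32, 49 and 28 in control, although Sox102F itself rose by 2.02 on the log2 scale. The higher copy, Tc1-2{}4327, lies outside genes on 3R and 318 bp from Fip1, and was also chosen after its values were seen. It had 21, 22 and 20 counts in EcRi and 1, 5 and 0 in control (log2 fold change 2.68 ± 0.76, edgeR adjusted p = 0.017). The Tc1-2 copies outside genes summed to a log2 fold change of 0.04, which was not called.

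Tc1 summed to 1.15, 1.11 and 1.52 CPM in EcRi, against 2.03, 1.70 and 1.79 CPM in control (log2 fold change −0.54 ± 0.19, edgeR adjusted p = 0.037). With scaling by total counts it was at 0.11, and its call was lost without EcRi replicate 1 (−0.47), EcRi replicate 2 (−0.44), control replicate 1 (−0.48) or control replicate 3 (−0.55). The copy Tc1{}826, 1176 bp from CG8468 and chosen after its values were seen, had 6, 8 and 8 counts in EcRi and 121, 47 and 84 in control. Cr1a, a non-LTR element of the CR1 group with 152 insertions, had 8.71, 8.36 and 8.62 CPM in EcRi, against 12.1, 11.1 and 10.1 CPM in control (log2 fold change −0.37 ± 0.09, edgeR adjusted p = 0.0096). The ranges were apart, but with scaling by total counts the value was 0.27. Its copies outside genes stood at −0.12 and were not called.

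The remaining 4 lower families had few counts. G3 summed to 0.120 ± 0.0294 CPM in EcRi and 0.275 ± 0.0393 CPM in control (log2 fold change −1.19 ± 0.31). Doc3 summed to 0.323 ± 0.0353 CPM in EcRi and 0.525 ± 0.0384 CPM in control (log2 fold change −0.70 ± 0.22), and hopper2 to 0.157 ± 0.0396 CPM in EcRi and 0.490 ± 0.239 CPM in control (log2 fold change −1.65 ± 0.44). For jockey2 the sums were 0.128 ± 0.0125 CPM in EcRi and 0.271 ± 0.118 CPM in control (log2 fold change −1.09 ± 0.38). The calls of Doc3 and jockey2 were each lost in 5 of the 6 fits that left out a library, and that of hopper2 without EcRi replicate 3 (−1.58). Doc3 kept its call only without control replicate 1 and jockey2 only without control replicate 3.

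For each called family the fit was repeated without its most abundant insertion and with insertions outside genes only. Without the most abundant insertion, 4 of the 9 higher families were still called (G2, Bari1, Juan and HeT-A), 4 were not (G5, the I-element, Doc2 and the F-element), and transib1 had no counts left. Of the 8 lower families, Ivk, Tc1-2, Tc1 and Cr1a were still called and the other 4 were not. Outside genes, 7 of the 9 higher families were called, the exceptions being Doc2 at −0.0033 and the I-element at 0.18. Of the lower families 6 of the 8 were called there, the exceptions being Tc1-2 and Cr1a. Only G2, Bari1, Juan, HeT-A, Ivk and Tc1 kept their call in both fits.

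**Figure D3:**
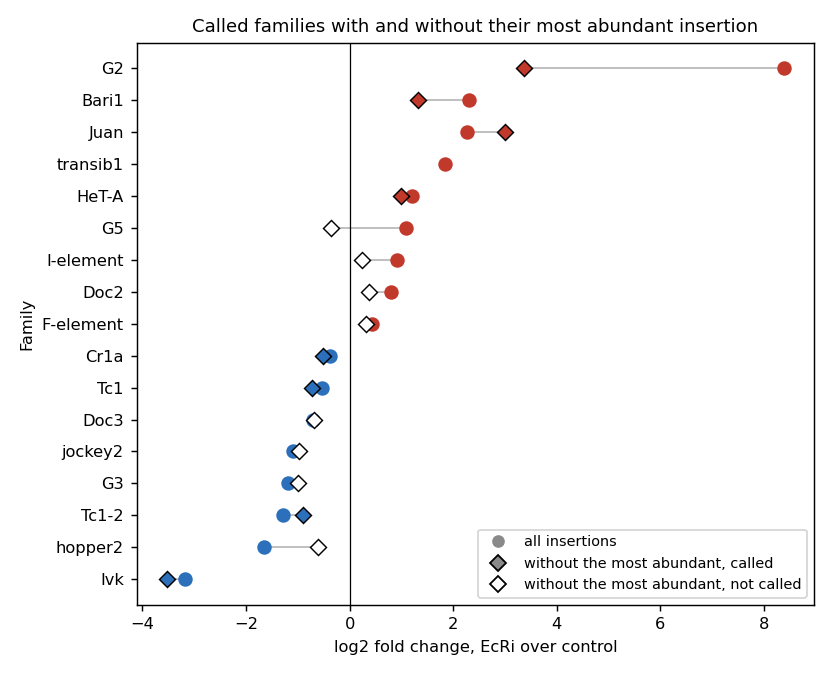
Log2 fold change, EcRi over control, of the 17 called families with all insertions (circles) and without the most abundant insertion of each (diamonds, filled where still called at an edgeR adjusted p of 0.05). G2 moves to 3.36 from the full value of 8.38, Juan to 3.01 and G5 to −0.36, while transib1 has no diamond because all its counts lie on 1 insertion.

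Among the 25 families that were not called, several held copies that moved in opposite directions. The H family, the annotated copies of hobo, had 4.26, 3.92 and 5.02 CPM in EcRi, against 3.62, 4.89 and 4.27 CPM in control, a log2 fold change of 0.05 ± 0.15. One copy, H{}84, lies in an intron of nAChRalpha3 on X, antisense to the gene, from 8293303 to 8296283. It had 0.596, 0.520 and 0.428 CPM in EcRi, against 2.53, 3.79 and 3.11 CPM in control, and was lower in every EcRi library (log2 fold change −2.61 ± 0.22, edgeR adjusted p = 4.5e-05). It held 11.6% of the family's counts in EcRi and 73.6% in control. Without it the family was higher in EcRi, at 1.80 ± 0.16 (edgeR adjusted p = 6.4e-05), and the copies outside genes were at 2.33 ± 0.18.

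Among the higher copies was a pair of neighbouring H fragments on 3R, 15 bp apart. H{}1735, from 7090364 to 7091141, had 2.10, 1.77 and 2.40 CPM in EcRi, against 0.383, 0.343 and 0.317 CPM in control (log2 fold change 2.58 ± 0.20). H{}1737, from 7091156 to 7091591, had 1.06, 1.20 and 1.62 CPM in EcRi, against 0.297, 0.251 and 0.222 CPM in control (log2 fold change 2.33 ± 0.25). Both were higher in each EcRi library than in any control library. The nearest gene, lncRNA:CR43685, was at 0.36 and not called, and alphaTub84B on the other side fell by 1.28 on the log2 scale.

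INE-1 showed a similar mix. Its 2234 insertions summed to 50.8, 52.3 and 56.5 CPM in EcRi, against 57.8, 52.4 and 48.0 CPM in control, a log2 fold change of 0.02 ± 0.09 with overlapping libraries. Outside genes the sum was higher in EcRi, at 0.48 ± 0.12 (edgeR adjusted p = 0.011). The 1360 family, with 491 insertions, was at −0.12 ± 0.12. Of its 57 tested insertions, 11 were higher and 5 lower, beside 30.1% and 29.3% of all tested rows. The Doc family had 42 tested insertions, more than any other family but INE-1 and 1360, and only 1 was called, as lower. Its sum was 44.2, 41.2 and 42.1 CPM in EcRi, against 52.8, 50.2 and 40.6 CPM in control (log2 fold change −0.17 ± 0.11, edgeR adjusted p = 0.215). The jockey family, with 96 insertions, stood at 0.06 ± 0.11.

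FB, the foldback element, was level at 0.04 ± 0.11 as a family, and without its leading copy it was lower in EcRi, at −0.39 ± 0.12 (edgeR adjusted p = 0.022). That copy, FB{}Pur-alpha[FB] in an intron of Pur-alpha on chromosome 4, had 2.69, 2.49 and 3.38 CPM in EcRi, against 2.10, 1.83 and 1.88 CPM in control (log2 fold change 0.56 ± 0.17). Its call was lost without EcRi replicate 3 (0.42), control replicate 2 (0.51) or control replicate 3 (0.54). Rt1b was level at −0.14 ± 0.20 as a whole and at 0.61 ± 0.19 outside genes (edgeR adjusted p = 0.026). Its leading copy, Rt1b{}990 in an intron of bru3, varied widely, at 3.57, 5.19 and 4.77 CPM in EcRi and 4.56, 8.21 and 4.30 CPM in control.

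Single insertions were named where they were called, averaged at least 1 CPM in 1 genotype and did not overlap between genotypes. Of the 476 tested insertions 20 met this rule, 12 higher and 8 lower, beside 49.3% of all 12193 tested rows. These shares are not alike, since 454 of the 476 averaged below 1 CPM over the 6 libraries. Among those that averaged at least 1 CPM, 8 of 22 insertions were called higher and 4 lower (54.5%). Of all 8719 rows at that level, 66.9% were called. Besides the copies already described, the increases were INE-1{}2091, INE-1{}5632, INE-1{}6210, 1360{}1504 and Rt1b{}161. INE-1{}2091 on 3L, 358 bp downstream of CG14567, had 2.14, 3.05 and 1.69 CPM in EcRi, against 0.0454, 0.0628 and 0.0127 CPM in control (log2 fold change 5.79 ± 0.47). CG14567 itself averaged 58.8 ± 10.2 CPM in EcRi and 0.761 ± 0.108 CPM in control, and rose by 6.27 on the log2 scale. INE-1{}5632, a 58 bp fragment on X that lies 49 bp from CG14219 and 185 bp from CG14204, had 1.66, 2.92 and 0.819 CPM in EcRi, against 0.544, 0.394 and 0.291 CPM in control (log2 fold change 2.13 ± 0.49). CG14219 rose by 4.18 and CG14204 by 7.91.

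The other 3 lay in introns or close to a gene. 1360{}1504, in an intron of Rnf11 on chromosome 4 and antisense to it, had 0.966, 0.781 and 1.38 CPM in EcRi, against 0.307, 0.268 and 0.304 CPM in control (log2 fold change 1.83 ± 0.27), while Rnf11 was at 0.09. Rt1b{}161 on X averaged 1.44 ± 0.170 CPM in EcRi and 0.673 ± 0.0435 CPM in control (log2 fold change 1.09 ± 0.18). INE-1{}6210 averaged 1.66 ± 0.242 CPM in EcRi and 0.693 ± 0.0732 CPM in control (log2 fold change 1.26 ± 0.19), and its host mthl3, a Methuselah-like receptor gene, rose by 1.02.

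Among the 8 decreases named by this rule, H{}84 was the largest, and the next 4 also lay inside genes. Cr1a{}1607, in an intron of nAChRalpha4 on 3L, had 0.259, 0.239 and 0.334 CPM in EcRi, against 1.22, 1.55 and 1.53 CPM in control (log2 fold change −2.37 ± 0.23). 1360{}94, in an intron of RhoU on X, had 0.526, 0.617 and 0.390 CPM in EcRi, against 1.77, 2.16 and 1.15 CPM in control (log2 fold change −1.73 ± 0.29). Neither host fell: nAChRalpha4 was at 0.35 and not called, and RhoU rose by 0.38. INE-1{}3979, in an intron of Cadps on chromosome 4, had 0.362, 0.362 and 0.387 CPM in EcRi, against 1.05, 1.11 and 1.17 CPM in control (log2 fold change −1.59 ± 0.18), with Cadps at −0.54. 1360{}4770 overlaps coding and 3′ UTR sequence of anne on the same strand, and averaged 0.471 ± 0.0395 CPM in EcRi and 1.01 ± 0.163 CPM in control (log2 fold change −1.10 ± 0.21), beside −0.76 for anne. The remaining 3 were Cr1a{}1992 at −0.97, INE-1{}4839 at −0.49 and INE-1{}4180 at −0.39. INE-1{}4180 was called in none of the 6 fits that left out a library, and INE-1{}4839 only without control replicate 2. With scaling by total counts these last 2 stood at 0.26 for INE-1{}4180 and at 0.17 for INE-1{}4839.

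**Figure D4:**
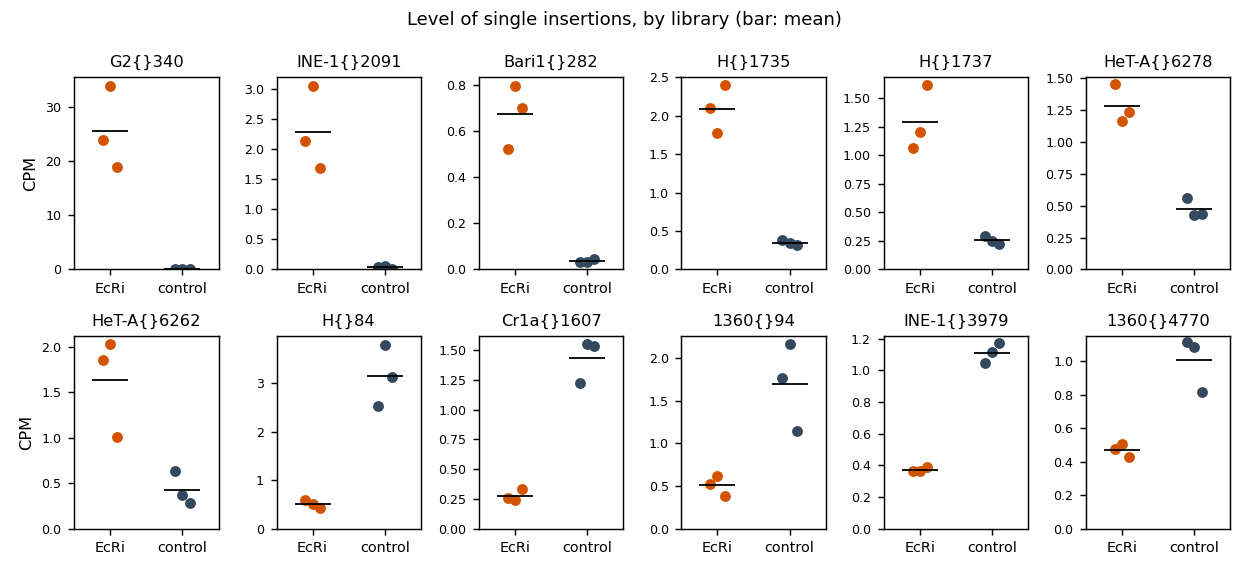
Level in CPM of 12 single insertions in the 3 EcRi libraries (left, orange) and the 3 control libraries (right, dark), with a bar at the mean and a scale of its own from 0 for each insertion. The first 7 panels are higher in EcRi, led by G2{}340 at up to 33.7 CPM against at most 0.0457 CPM in control, and the last 5 are lower, led by H{}84, with no overlap between genotypes in any panel.

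Because a transcript that crosses an insertion may be counted on it, each tested insertion inside a gene was set beside its host. Over 313 such pairs, Pearson's r was 0.22 and Spearman's rho 0.26 between the log2 fold changes, and 187 pairs (59.7%) had the same sign. The pairs share libraries and some share a host, so these are descriptions without a test. Of the 68 pairs with a called insertion, 47 had the same sign. The rank correlation was 0.32 over 167 insertions on the strand of the host and 0.19 over 146 on the opposite strand. The relation was loose in both directions: BS{}1233, in an intron of Osi24 on the same strand, had 189, 289 and 264 counts in EcRi and 135, 172 and 155 in control, a log2 fold change of −0.01, while Osi24 rose by 5.47.

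Outside genes, likeness to the nearest gene went with distance, in bins set after the values were seen. Over 45 insertions within 500 bp of a tested gene rho was 0.66, and 34 (75.6%) had the sign of that gene, as did 17 of the 19 that were called. From 501 to 5000 bp rho was 0.16 over 51 insertions, and 9 of 18 called ones had the sign of the gene. Beyond 5000 bp rho was −0.33 over 25 insertions, and 2 of 9 called ones had its sign. Several of the most distant insertions share 1 gene, Cadps, and so are not separate cases. X{}1234, 1101 bp from Osi6 and chosen after its values were seen, had 65, 73 and 40 counts in EcRi and 0 in every control library, beside an Osi6 level of 1385 CPM in EcRi and 0.222 CPM in control.

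**Figure D5:**
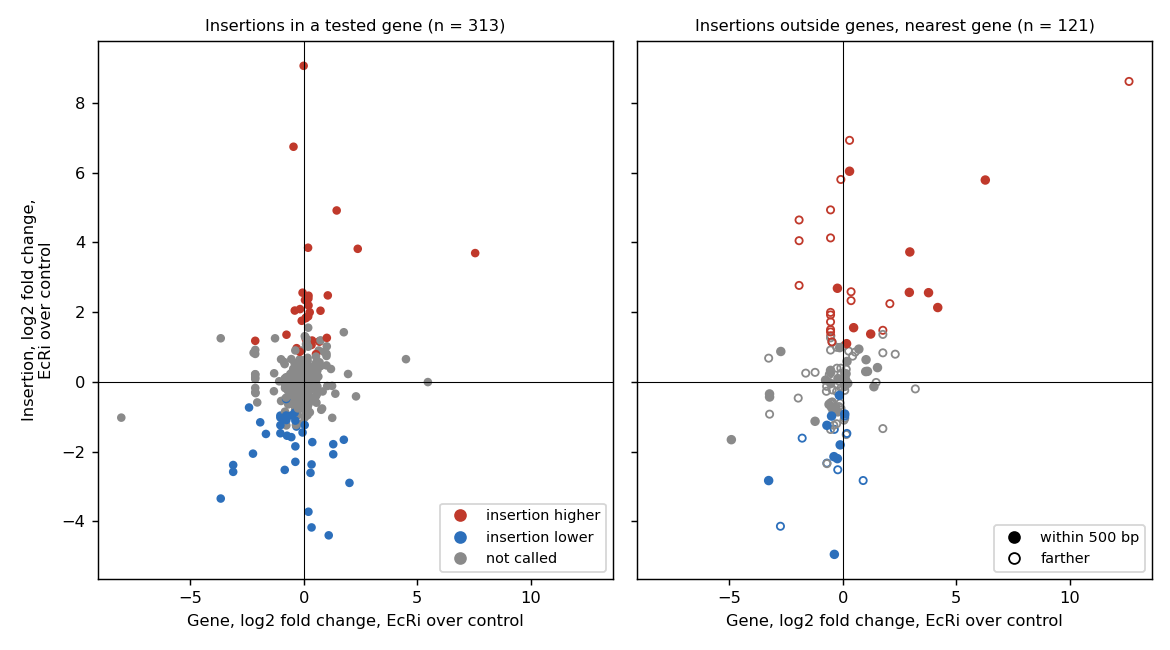
Log2 fold change of each tested insertion (vertical axis) against that of its host gene for 313 insertions inside tested genes (left) and against that of the nearest tested gene for 121 insertions outside genes (right), all EcRi over control. Red and blue mark insertions called higher and lower, filled points on the right lie within 500 bp of the gene, and fitted values of insertions at 0 counts in control, at the top of both panels, depend on the fit. The filled points follow the gene more closely (rho 0.66) than the insertions inside genes follow their host (rho 0.26).

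Called insertions also lay side by side, and the following groups were picked after their values were seen. In introns of CG3635 on 2L, Cr1a{}1992 and 3 INE-1 copies were all lower, at −0.97 for Cr1a{}1992, −1.02 for INE-1{}6136, −1.47 for INE-1{}6138 and −1.24 for INE-1{}6139, beside −1.02 for the gene. The call of INE-1{}6136 was lost without EcRi replicate 1 (−0.86), EcRi replicate 2 (−0.96), control replicate 2 (−1.02) or control replicate 3 (−0.99). In the intron of nAChRalpha4, the 46 bp fragment Cr1a{}5145, which ends where Cr1a{}1607 begins, had 0, 0 and 3 counts in EcRi and 13, 14 and 12 in control. On 2L downstream of nrv3, a gene for a sodium pump subunit that fell by 1.93, insertions of 3 families were higher instead. I{}490 had 36, 26 and 27 counts in EcRi and 0, 0 and 2 in control, and 1360{}4177 had 14, 16 and 16 counts in EcRi and 0, 2 and 2 in control. The third was G5{}492, described above, and the nearest of them lies 1309 bp from the gene.

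Other insertions inside genes changed more than the host did, and these were likewise picked after their values were seen. INE-1{}5232, in an intron of the autophagy gene Atg17, had 130, 193 and 165 counts in EcRi and 6, 2 and 2 in control, while Atg17 rose by 1.45 on the log2 scale. INE-1{}4062, a 55 bp fragment in an intron of Kua, had 141, 182 and 244 counts in EcRi and 18, 21 and 24 in control (log2 fold change 2.48 ± 0.31), and Kua rose by 1.06. Of the long jockey copies, jockey{}1461, antisense in an intron of the collagen hydroxylase gene PH4alphaEFB, had 70, 160 and 100 counts in EcRi and 7, 2 and 5 in control. In contrast, jockey{}1447, 5015 bp long and outside genes on 3R, had 13, 25 and 14 counts in EcRi and 92, 82 and 89 in control (log2 fold change −3.01 ± 0.31).

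By position, 36 of the 158 tested insertions outside genes were higher and 20 lower, against 31 and 32 of 292 in introns and 3 and 5 of 26 over exons. By chromosome, 3R had 18 higher and 3 lower of 51, X 9 and 8 of 40, 3L 7 and 12 of 75, and chromosome 4, which is rich in old insertions, 11 and 16 of 123. Chromosome 2L had 8 and 8 of 67, and 2R had 17 and 10 of 120. The largest share of calls by place or chromosome was 42.5%, on X, beside 59.5% of all tested rows. Over all tested rows, 30.1% were higher and 29.3% lower, and among rows with a mean below 1 CPM 26.5% and 14.1%. Shares of all rows by place or chromosome are not given here. The 61 insertions on the Y, of which 57 belong to the 1360 family, gave 9, 15 and 15 counts in all in EcRi and 20, 11 and 15 in control, and none was tested.

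Genes known to restrain transposons were called in both directions. Of 33 listed factors of the Piwi pathway, 31 were tested. Of these 8 rose and 8 fell, where 30.1% of all tested rows were higher and 29.3% lower, and the median change was 0.26 on the log2 scale, beside 0.03 over all tested rows. Their summed level was lower, from 736 to 828 CPM in EcRi and from 1069 to 1185 CPM in control, and lay mostly on tud (−0.60), tapas (−0.31) and papi (−1.30), which all fell. Among the higher were piwi (1.15), the nuclear effector, arx (0.86), its partner, and cuff (1.34), which acts on the clusters that give rise to the small RNAs. Also lower were AGO3 (−2.13), which amplifies them, fs(1)Yb (−2.55), which loads Piwi in ovarian somatic cells, and mael (−1.01). Several of these genes were low: piwi averaged 1.70 CPM in EcRi and 0.764 CPM in control, and AGO3 0.912 CPM in EcRi and 4.0 CPM in control. In the pathway of short interfering RNAs, AGO2 (0.18) and Dcr-2 (−0.25) were not called, r2d2 (−0.57) and loqs (−0.72) fell, and blanks rose by 3.17.

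Markers of germline and gonad summed to between 6.69 and 10.3 CPM in EcRi and between 1.96 and 2.90 CPM in control, mostly from ovo (log2 fold change 2.38), which is also active in epidermis, and from piwi. Of 9 markers found, 6 were tested, 3 were higher and none lower, beside 30.1% and 29.3% over all rows. Besides ovo and piwi, the germline gene bam was called higher. It had 20, 20 and 16 counts in EcRi and 0, 6 and 0 in control (log2 fold change 2.51, edgeR adjusted p = 0.0497). The genes aub (0.08) and bgcn (0.01) were not called. The defining germline marker vas had 0.0657, 0.0161 and 0.150 CPM in EcRi, against 0.0605, 0.0343 and 0.0444 CPM in control, with overlap. The genes zpg and tj were at 0 in EcRi replicates 1 and 2 and in every control library, and osk averaged under 0.01 CPM in both genotypes. The next lists had smaller shares of calls than all rows. Of 15 tested heterochromatin factors, wde, HP5 and sov rose by 0.31 to 0.49 on the log2 scale and HP4 fell by 0.40. Among 9 tested factors that cap telomeres, nbs and tea each rose by 0.50 and ver fell by 0.61. These lists were set beside the insertions by their counts alone, and a link between them was not tested.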

How the data were processed

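Intestinal RNA from 3 EcRi and 3 control libraries was analysed from the deposited table of raw counts, with 1 column per library. The authors trimmed reads with Trim Galore!, used HISAT2 for alignment to dm6 and obtained counts from featureCounts, all on Galaxy. How reads from repeated copies and strand were handled is not given in the sources used here, so copies of similar sequence, overlapping genes and antisense genes are uncertain. The labels name an RNeasy kit and the methods TRIZOL. Identifiers were matched to names and positions in Ensembl release 115 of BDGP6, and host genes take any overlap. Counts were fitted in R 4.3.3 with edgeR 4.0.16 (filterByExpr, TMM, robust quasi-likelihood test, Benjamini-Hochberg adjustment over all tested rows, threshold 0.05), singly and after summing by element name. DESeq2 1.42.0 and limma 3.58.1 were alternatives. The SE is the log2 fold change over the square root of F. The code of the test was run on simulated counts with a fixed spread. Single rows were changed there only where counts were ample, so changes near the limit of detection were not checked. Named insertions were up to 10 increases and up to 10 decreases by the rule stated in the results, and the most abundant tested copy of each family. Lists and members were chosen with earlier results of these data known. The limit of 3 counts covers counting error only, whereas SD and SE include the spread between libraries. Sequences were not used here. Between libraries of a genotype, counts differed by more than sampling noise.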

Additional observations from a re-analysis of the deposited data

How the results depend on the processing

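Of 4101 insertions only 476 reached the tested depth, and 1861 had counts that allow no statement on direction. All alternatives changed 1 choice at a time. Values below are log2 fold changes, EcRi over control, unless a count is named.

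The 70 higher insertions became 26 with at least 10 counts in every library, 156 with scaling by total counts and 44 at an adjusted p below 0.01. The 57 lower ones became 31, 25 and 29 under the same settings and 34 above a 1.5-fold change. The 9 higher families became 5 above a 1.5-fold change and 27 with total counts. The 8 lower families became 3 above a 1.5-fold change, 2 with total counts, 3 at an adjusted p below 0.01 and 5 with the replicate number as a block. The summed level moved to 0.83 with total counts, 0.96 for insertions outside genes, 0.042 without the most abundant insertion of each family and −0.030 without G2{}340. The fit without G2{}340 and a stricter spelling of the family names, which gave 58 higher and 54 lower insertions, were chosen after seeing the data. DESeq2 called 62 insertions higher and 60 lower, and limma-voom 72 higher and 64 lower. The correlation with host genes (rho) was 0.37 over insertions of at least 1 CPM and 0.19 on the opposite strand. Without 1 library at a time, insertions ran from 59 to 72 higher and from 42 to 74 lower, families from 6 to 9 higher and from 5 to 7 lower, and the summed level from 0.10 to 0.20. The cause of these moves was not tested, other than the shift that scaling by total counts gives to all rows.

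Libraries with the same number did not deviate together (correlations −0.0937, 0.0665 and −0.0815), and not every library correlated best with its own number. The block fit called 60 insertions higher and 54 lower, and 7 families higher and 5 lower.

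Directions turned as follows. With total counts, S{}1217 was at 0.52, BS{}1233 0.66, Doc{}CHKov1[Doc1420] 0.48, G{}431 0.026, Rt1b{}990 0.30, Cr1a{}2411 0.52, G5A{}3723 0.17, INE-1{}4180 0.26, INE-1{}4839 0.17 and jockey{}5768 0.51. The families then stood at 0.51 for 1360, 0.63 for BS, 0.27 for Cr1a, 0.47 for Doc, 0.32 for Doc4, 0.049 for the G-element, 0.22 for G5A, 0.50 for Rt1b, 0.11 for Tc1 and 0.48 for mariner2. BS{}1233 was at 0.049 with at least 10 counts, 0.024 in limma-voom, 0.019 with no filter and 0.0062 with the block, BS at 0.014 with at least 10 counts, and the S-element at −0.0080 in limma-voom and −0.012 with the block. Outside genes, BS was at 0.16, BS3 −0.45, Doc2 −0.0033, FB −0.998, G4 −0.15, Rt1b 0.61, Rt1c −0.19, the S-element −0.0089, Tc1-2 0.044, the X-element −0.17, jockey −0.22, mariner2 0.32 and transib4 −0.049. Without the most abundant copies, BS3 was at −0.31, FB −0.39, G5 −0.36, Rt1b 0.33, transib2 −0.63 and transib4 −0.049.

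Leaving out 1 library turned the sign of S{}1217 (−0.38 to 0.010), BS{}1233 (−0.19 to 0.083), Rt1b{}990 (−0.50 to 0.014), jockey{}5768 (−0.33 to 0.064) and HeT-A{}6281 (−0.059 to 0.65). It did so for the families BS (−0.18 to 0.081), BS3 (−0.018 to 0.13), FB (−0.039 to 0.11), G6 (−0.18 to 0.66), H (−0.071 to 0.15), INE-1 (−0.042 to 0.071), Rt1b (−0.27 to 0.10), the S-element (−0.15 to 0.12), the X-element (−0.12 to 0.38), jockey (−0.00428 to 0.12), mariner2 (−0.27 to 0.076) and pogo (−0.074 to 0.13). Over the named insertions and families, 1483 of 1696 comparisons kept direction and side of the threshold, 108 lost the call, 31 gained it and 74 turned sign.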

Other observations

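A few non-LTR and DNA transposon families of the table have names outside the list followed above, and their sums were read from the same family fit after their values were seen. S2, a Tc1-like DNA transposon related to the S-element, had 0.604, 0.855 and 0.488 CPM in EcRi, against 0.0403, 0.0857 and 0.0824 CPM in control. The libraries did not overlap, and the log2 fold change was 3.23 ± 0.39 (edgeR adjusted p = 0.00026). R1A1, a non-LTR element of the ribosomal DNA, was lower, at 0.819 ± 0.0207 CPM in EcRi and 1.43 ± 0.154 CPM in control (SD, log2 fold change −0.80, edgeR adjusted p = 0.0047). HB (−0.29), Tc3 (−0.12) and baggins (0.93) were not called, while HeT-Tag, Helena, looper1 and Helitron had too few counts for the test.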
